A study of Mus musculus with 4 samples.

Results

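The genes described here encode the proteins of the cytosolic ribosome. They were chosen as the protein-coding mouse genes whose symbol begins with Rpl or Rps followed by a digit, or is Rplp0, Rplp1, Rplp2 or Rpsa, without the Rps6k kinases. This rule found 92 of the 50686 genes counted in each library. Of these, 46 encode proteins of the large subunit and 31 proteins of the small subunit. A further 8 are paralogs of a subunit protein gene, 6 carry a pseudogene symbol (-ps) but are annotated as protein-coding, and Rps19bp1, which the symbol rule also takes, encodes a partner of Rps19 and not a ribosomal protein. The filter on low counts kept 87 of the 92 for testing. The 5 left out were Rpl10l, Rpl3l and Rpl9-ps1, which had no read in any library, Rpl36-ps4, which had 1 read in all, and Rpl39l, which had 10, 0, 8 and 12 reads.

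Each ribosome carries a copy of nearly every one of these proteins, bound to ribosomal RNA in a large subunit, which forms peptide bonds, and a small subunit, which reads the mRNA. Their mRNAs are among the most abundant in a cell and share a run of pyrimidines at the start (the TOP motif), through which mTORC1 controls their translation. Lymphocytes that leave rest and divide build many new ribosomes. Some ribosomal proteins also act outside the ribosome, for example by binding Mdm2 and so releasing p53.

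RNA was counted in 4 bulk libraries of mouse cells from spleen and lymph node, extracted from culture. Unstimulated WT cells, unstimulated Yap KO cells, stimulated WT cells and stimulated Yap KO cells gave 1 library each, and values are given in this order throughout. A number 24 without a unit stands in the titles of the stimulated libraries, and the replicate number 1 in all titles. The sources used here do not give the stimulus, the cell type, the strain, the age and number of animals, or the form of the Yap deletion. No group had a replicate, so genotype and cell source cannot be told apart, intervals cover counting error only, and standard errors (SE) come from an additive fit of genotype and state to all 4 libraries.

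Reads in genes numbered 22088392, 25419974, 20976343 and 19935523. Yap1, which the genotype labels name, had 1, 0, 3 and 2 reads, which is too few to check them. Among T cell markers, Cd4 had 0 to 3 reads in any library, while Cd8a had 18825, 20341, 5538 and 4858 reads. The summed level of the 7 T cell markers was 4784, 4933, 1370 and 1245 CPM (counts scaled to a common library size, here to all reads in genes), and all 6 that could be tested fell with stimulation. B cell markers summed to 1184, 1119, 413 and 368 CPM, most of it Ighm. NK cell markers summed to 56.4, 124, 53.2 and 69.6 CPM, nearly all of it Eomes (53.6, 117, 53.1 and 69.3 CPM). The other NK cell markers, Ncr1, Klrb1c, Klra4 and Klra8, had at most 75 reads in an unstimulated library and at most 3 in a stimulated one. Myeloid markers summed to 28.6, 32.9, 17.5 and 22.9 CPM and erythroid markers to 3.94, 2.20, 0.667 and 0.401 CPM. Of the 7 myeloid markers, Itgam, Adgre1, S100a8 and S100a9 had at most 26 reads in an unstimulated library and 0 in both stimulated ones. Lyz2 had 136, 238, 6 and 1 reads. Csf1r, with 362, 435, 291 and 396 reads, and Cd68, with 84, 119, 71 and 59, stayed counted in the stimulated libraries and were not called. These lists moved with stimulation, and their part in the changes below was not tested. In bulk RNA, fewer cells of a type and less RNA per cell cannot be told apart.

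Ribosomal protein genes took a similar share of the reads in all libraries, with differences beyond counting error. The 92 genes held 3.13% of the reads in genes in WT unstimulated cells (exact binomial 95% interval 3.12 to 3.14%), 3.34% in Yap KO unstimulated (3.34 to 3.35%), 3.35% in WT stimulated (3.34 to 3.36%) and 3.53% in Yap KO stimulated cells (3.52 to 3.54%). Large subunit genes held 1.73, 1.84, 1.92 and 1.99%, and small subunit genes 1.37, 1.47, 1.36 and 1.46%. The large subunit share was thus higher in each stimulated library than in the unstimulated library of its genotype. The summed reads of small subunit genes, stimulated over unstimulated, gave log2 ratios of 0.08 for WT and 0.07 for Yap KO with TMM scaling (edgeR's scaling by trimmed mean), and -0.01 for both with scaling to total counts, so their direction depends on the scaling. The 10 genes with the most reads held 30.9 to 35.2% of the reads of all 92.

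**Figure D1:**
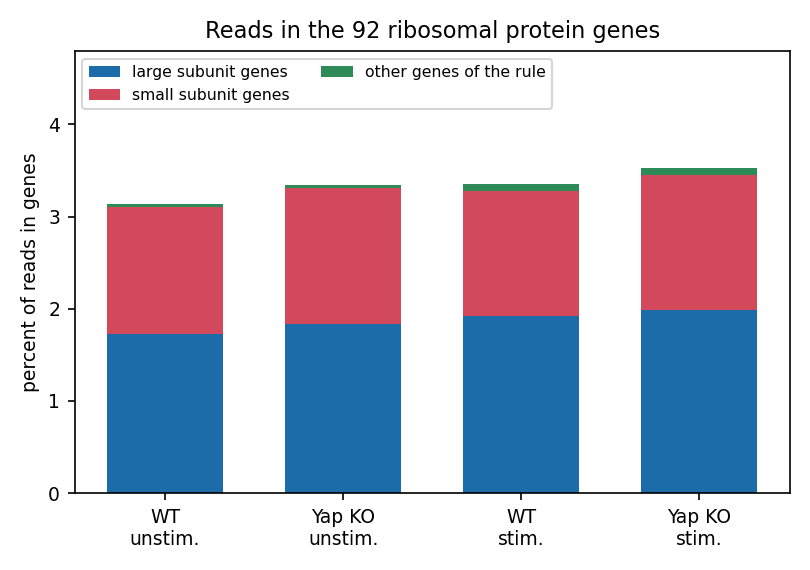
Percent of reads in genes that fell in the 92 ribosomal protein genes, as stacked bars for the 4 libraries, with large subunit genes below, small subunit genes above and the other genes of the rule on top. The bars reach 3.13, 3.34, 3.35 and 3.53%, and the large subunit part grows from 1.73 to 1.92% in WT and from 1.84 to 1.99% in Yap KO.

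Levels between genes were compared per kilobase of exon. Averaged over the 4 libraries, Rplp0 (800 CPM per kilobase), Rpl4 (745) and Rps3a1 (672) were among the 5 genes with the highest levels. Rplp0, the base of the stalk that calls in elongation factors, stood at 643, 717, 885 and 957 CPM per kilobase, and Rpl4 at 663, 711, 803 and 803, so the 2 changed places between libraries. Rps3a1 stood at 499, 814, 510 and 866, above Rplp0 in the unstimulated Yap KO library and below it in the other 3. The order rests on the length used: with the coding length in place of the exon length, 3 of the first 10 genes were the same. At the low end, Rpl36a-ps1 averaged 0.992, Rpl39l 0.437 and Rpl36-ps4 0.0366 CPM per kilobase among the genes with any read.

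Stimulation changed about as many of these genes as it left uncalled, and by small amounts. Over all 15394 genes tested, edgeR's quasi-likelihood test (additive fit, Benjamini-Hochberg adjusted p under 0.05) called 33.3% higher, 34.1% lower and 67.4% in either direction. Of the 87 ribosomal protein genes tested, 34 rose (39.1%) and 9 fell (10.3%), so 49.4% were called. The share that rose was near that of all genes, and the shares that fell and that were called at all were below it. Only 9 of the 87 (10.3%) were called with a change of at least 2-fold, against 46% of all genes. The median log2 ratio, stimulated over unstimulated, was 0.18 in WT and 0.25 in Yap KO, beside -0.02 and -0.05 over all genes. The SD of the fitted log2 change was 0.70 over the 87 genes and 0.51 over the 77 large and small subunit genes, against 2.06 over all genes.

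The counts of the large and the small subunit come from sets of unequal size. They stand beside 33.3% called higher and 34.1% called lower over all genes. Of the 46 large subunit genes, 19 rose, 3 fell and 24 did not pass the test, with medians of 0.27 in each genotype. Of the 31 small subunit genes, 10 rose, 4 fell and 17 did not pass, and the medians were 0.03 for WT and 0.09 for Yap KO. On total counts the large subunit medians were 0.18 and 0.19, and the small subunit medians -0.06 and 0.01, so the sign of the latter in WT depends on the scaling. The difference between the subunits was not tested.

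**Figure D2:**
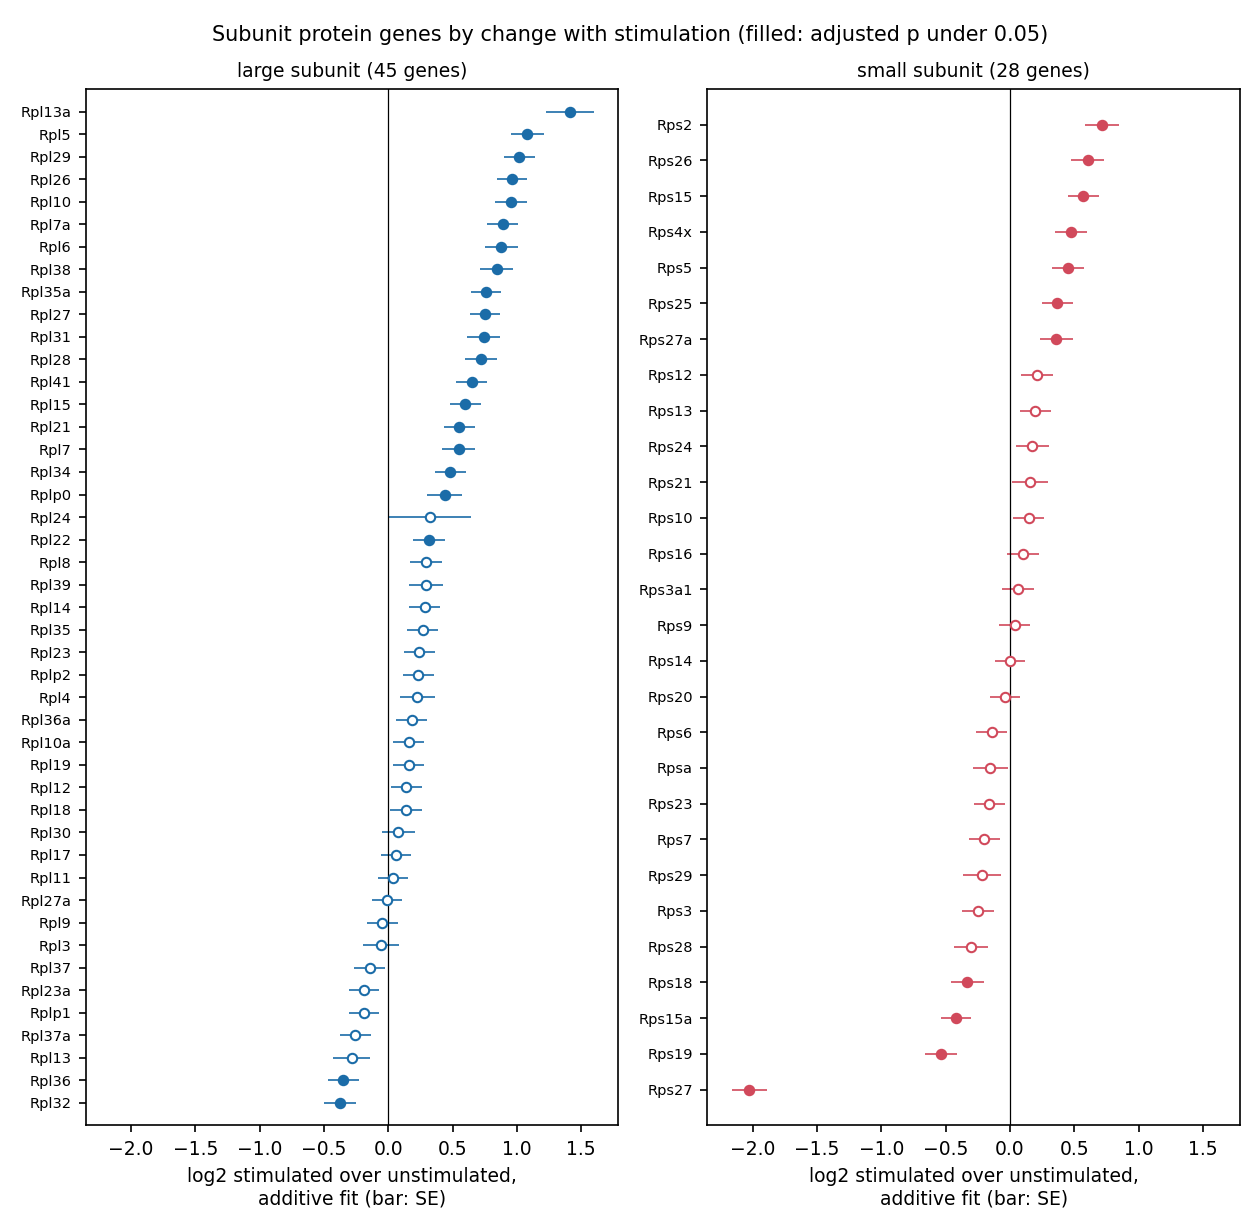
Fitted log2 change with stimulation of 45 large subunit genes (left) and 28 small subunit genes (right), in order of size. Points are the coefficients of the additive fit to 4 libraries, bars are their SE, and filled points passed an adjusted p under 0.05. Most points lie within 1 log2 unit of 0. Rpl13a leads the rises, and Rps27, at -2.03, stands below the rest.

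Among large subunit genes, Rpl5 and Rpl11 encode the pair of proteins that join a small ribosomal RNA and, outside the ribosome, hold Mdm2. Rpl5, on chromosome 5 from 107900502 to 107909005 (GRCm38, identifier ENSMUSG00000058558), had 457, 460, 1009 and 933 CPM. Both stimulated libraries were above both unstimulated ones, and the fitted rise was 1.08 ± 0.13 log2 units (SE, adjusted p = 6.42e-05, edgeR quasi-likelihood test). Its partner Rpl11 had 222, 248, 233 and 248 CPM, with overlapping states and a fitted difference of 0.04 ± 0.12 (adjusted p = 0.787 by the same test). Of Rpl5's 31-mers, 50.4% occur in another gene, and some of its exon bases lie opposite another gene. Rpl23, which also binds Mdm2, had 303, 306, 334 and 389 CPM and did not pass (0.24 ± 0.12, edgeR adjusted p = 0.108). Rpl26, which has been linked to translation of p53 mRNA, had 196, 182, 368 and 367 CPM and rose by 0.96 ± 0.12 (edgeR adjusted p = 8.96e-05).

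Genes for the catalytic core and late-joining proteins of the large subunit also moved unequally. Rpl10, which joins the large subunit late in the cytoplasm, had 353, 383, 687 and 739 CPM and rose by 0.95 ± 0.12 (edgeR adjusted p = 0.00011). Rpl38, known for its part in the translation of Hox mRNAs, had 49.8, 58.7, 94.2 and 99.9 CPM and rose by 0.84 ± 0.13 (edgeR adjusted p = 0.000335). Rpl3, which reaches into the catalytic centre, had 1270, 1339, 1312 and 1196 CPM and did not pass (-0.06 ± 0.14). The 3 genes of the stalk differed: Rplp0, at 1066, 1190, 1468 and 1587 CPM, rose by 0.44 ± 0.13 (edgeR adjusted p = 0.0169). Rplp1 (300, 333, 259 and 296 CPM) and Rplp2 (230, 244, 260 and 298 CPM) did not pass. Rpl29 (1.02 ± 0.12), Rpl7a (0.89 ± 0.12) and Rpl6 (0.88 ± 0.13) were among the other large subunit genes that rose.

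Rpl32 (-0.37 ± 0.12, edgeR adjusted p = 0.0244) and Rpl36 (-0.35 ± 0.12, edgeR adjusted p = 0.0274) were among the 3 large subunit genes that fell. Of the 31-mers of Rpl36, 94.1% occur in other genes, and Rpl32 has exon bases opposite another gene.

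Rpl13a and Rpl24 were counted at far lower levels than their neighbours in the ribosome. Rpl13a, which also serves in a complex that silences inflammatory mRNAs, had 206, 227, 480 and 458 reads. It led the large subunit rises at 1.41 ± 0.19 (edgeR adjusted p = 0.000126). In its exons, 35.4% of bases are also annotated to another gene on the same strand. With the reads of its 2 pseudogenes added, its log2 stimulation ratio was 0.96 in WT and 1.10 in Yap KO, against 1.39 and 1.44 alone, all without a prior count. Rpl24 had 57, 60, 57 and 62 reads, and 47.0% of its exon bases are shared with another gene on the same strand, which had no read in any library. The counting set reads that fit more than 1 gene apart as ambiguous, and these were 0.691, 0.755, 0.635 and 0.727% of all entries. The sources used here do not say which genes these reads came from. The part of shared bases in these low counts was not tested.

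In the small subunit, the genes of the mRNA channel and of mRNA binding went in different directions. Rps2 had 782, 872, 1340 and 1374 CPM and rose by 0.72 ± 0.13 (edgeR adjusted p = 0.00111). Rps3, which lines the channel entrance, had 813, 876, 694 and 729 CPM and did not pass (-0.25 ± 0.13, edgeR adjusted p = 0.11), although on total counts it was called lower. Rps26, at the channel exit, had 139, 146, 190 and 245 CPM and rose by 0.60 ± 0.13 (edgeR adjusted p = 0.0024). Rps25, needed for initiation at some viral RNAs, rose by 0.37 ± 0.12 from 410 and 400 to 513 and 533 CPM. Rps27a, made as a fusion with ubiquitin, rose by 0.36 ± 0.13 and had 336, 357, 397 and 498 CPM. The calls of Rps25 and Rps27a were lost on total counts (edgeR adjusted p = 0.0622 and 0.0798), and Rps2, Rps25 and Rps27a have exon bases opposite another gene.

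Rps6, the target of the S6 kinases, had 559, 569, 518 and 504 CPM and did not pass (-0.14 ± 0.12, edgeR adjusted p = 0.325). Rpsa, known also as the laminin receptor precursor, had 1173, 1361, 1116 and 1159 CPM, and Rps14, whose loss in human blood disease impairs red cell production, had 623, 649, 667 and 606 CPM. Neither passed, at -0.15 ± 0.14 and -0.00 ± 0.11. Rps19, the gene most often mutated in Diamond-Blackfan anaemia, changed by -0.54 ± 0.12 (edgeR adjusted p = 0.00382) and had 697, 733, 492 and 494 CPM, with the states apart in both genotypes. Rps15a fell from 257 and 262 to 193 and 195 CPM, a change of -0.42 ± 0.12 (edgeR adjusted p = 0.0106). Rps18 also fell (-0.33 ± 0.13).

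The widest change of any subunit protein gene was that of Rps27, whose paralog Rps27l moved the opposite way. Rps27, on chromosome 3 from 90212522 to 90213651 (GRCm38, minus strand, identifier ENSMUSG00000090733), had 14395, 15889, 2781 and 3285 reads, or 629, 612, 136 and 170 CPM. Rps27l, on chromosome 9 from 66946086 to 66949516 (plus strand, identifier ENSMUSG00000036781) and known as a p53 target, had 454, 702, 3227 and 4738 reads, or 19.8, 27.0, 158 and 246 CPM. Rps27 was high in both unstimulated libraries and low in both stimulated ones, and Rps27l the reverse, with no overlap of states in either gene.

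The fitted change of Rps27 was -2.03 ± 0.14 (edgeR adjusted p = 1.95e-06), 4.61-fold in WT and 3.59-fold in Yap KO. Rps27l rose by 3.09 ± 0.14 (edgeR adjusted p = 1.63e-07), 7.94-fold in WT and 9.05-fold in Yap KO, the largest rise of the 87 genes. Rps27l thus held 3.06, 4.23, 53.7 and 59.1% of the reads of the pair. Per kilobase of exon its part was 3.88, 5.35, 59.7 and 64.8%, and per kilobase of coding sequence 2.46, 3.41, 48.1 and 53.6%. A further copy, Rps27rt on chromosome 9, had 279, 292, 55 and 37 reads and fell by 2.35 (SE 0.27, edgeR adjusted p = 5.22e-05). Since 92.7% of its 31-mers occur in other genes, Rps27 among them, its reads cannot be told apart from those of Rps27 with certainty.

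The promoters of paralogs that parted ways are shown to set their sequences side by side, from 100 bases before to 20 bases after the RefSeq start (GRCm38.p6), 5′ to 3′ on the gene's strand. Capitals mark the letters of the searched motifs. They are AAGATGG (YY1) in Rps27 at chr3:90213629-90213748 on the minus strand and CCGGAAG (GABP) in Rps27l at chr9:66945986-66946105 on the plus strand. In Rpl36a at chrX:134585554-134585673 on the plus strand they mark TATAAA (the letters of a core promoter box). In Rpl36al at chr12:69184048-69184167 on the minus strand they mark overlapping copies of CCGCCCC, the reverse complement of GGGGCGG (SP1). The TATAAA of Rpl36a and the CCGGAAG of Rps27l lie after the start, at positions 4 and 10.
Rps27: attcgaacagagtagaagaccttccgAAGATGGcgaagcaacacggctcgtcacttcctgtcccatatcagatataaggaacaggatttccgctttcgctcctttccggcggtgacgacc
Rps27l: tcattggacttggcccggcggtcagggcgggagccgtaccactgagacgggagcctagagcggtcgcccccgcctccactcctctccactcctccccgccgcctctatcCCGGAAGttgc
Rpl36a: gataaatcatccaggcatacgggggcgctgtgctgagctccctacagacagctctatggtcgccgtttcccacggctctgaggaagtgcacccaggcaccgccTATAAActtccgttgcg
Rpl36al: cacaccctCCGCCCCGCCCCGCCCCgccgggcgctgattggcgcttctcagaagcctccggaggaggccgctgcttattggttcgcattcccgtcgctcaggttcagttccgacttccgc
Neither promoter of a pair holds the motif that is marked in the other in this window.

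Rpl36al, on chromosome 12 from 69182731 to 69184083, stands beside Rpl36a on the X chromosome, and both encode a large subunit protein at the site where tRNA leaves. Rpl36a had 99.0, 102, 110 and 118 CPM and did not pass (0.18 ± 0.12, edgeR adjusted p = 0.213). Rpl36al had 76.1, 91.9, 179 and 179 CPM and rose by 1.10 ± 0.13 (edgeR adjusted p = 6.26e-05). Its part of the reads of the pair was 43.4, 47.3, 62.0 and 60.1%, so by reads it went from the lesser to the greater part in both genotypes. Per kilobase of exon its part was 48.4, 52.4, 66.6 and 64.9%, so by that measure it was already the greater in unstimulated Yap KO cells. Of its exon bases, 24.5% are also annotated to another gene on the same strand.

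Rpl7l1, a relative of Rpl7 that resembles a yeast assembly factor of the large subunit, had 80.1, 87.3, 198 and 285 CPM and rose by 1.51 ± 0.14 (edgeR adjusted p = 1.26e-05). Rpl7 itself had 575, 573, 806 and 871 CPM and rose by 0.55 ± 0.13 (edgeR adjusted p = 0.00391). The part of Rpl7l1 in the reads of the pair was 12.2, 13.2, 19.7 and 24.7%, so Rpl7 stayed the greater in all libraries.

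Rpl22, which is needed for the development of αβ T cells, and Rpl22l1 kept their proportions more closely. Rpl22 had 78.3, 83.3, 95.8 and 106 CPM and rose by 0.32 ± 0.12 (edgeR adjusted p = 0.0445), a call that was lost with DESeq2 (adjusted p = 0.0986) and on total counts (edgeR adjusted p = 0.119). Rpl22l1 had 64.8, 69.1, 79.8 and 72.9 CPM and did not pass (0.19 ± 0.13). Rpl22l1 held 45.3, 45.3, 45.4 and 40.8% of the reads of this pair. The other paralogs were hardly counted: Rpl39l held at most 0.325% of the reads of Rpl39 and Rpl39l in any library, and Rpl3l and Rpl10l had no read beside 23062 or more reads of Rpl3 and 8086 or more of Rpl10.

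**Figure D3:**
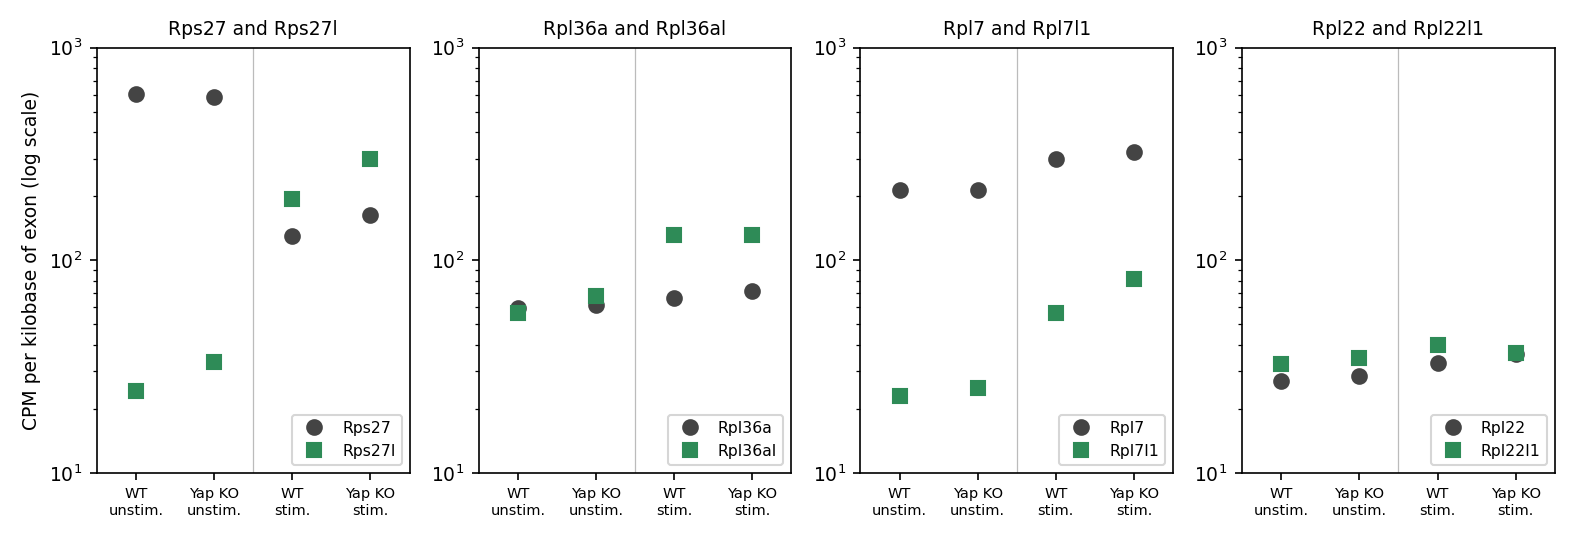
CPM per kilobase of exon (log scale) of 4 parent genes (circles) and their paralogs (squares) in each library. Rps27 and Rps27l cross between the unstimulated and the stimulated libraries. Rpl36al lies just below Rpl36a in WT unstimulated cells and just above it in Yap KO unstimulated cells. In both stimulated libraries Rpl36al lies well above Rpl36a. Rpl7l1 rises below Rpl7, and Rpl22 and Rpl22l1 stay close together.

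Of the genes with a pseudogene symbol, 4 were tested. Rpl10-ps3 rose (0.89 ± 0.25, edgeR adjusted p = 0.0102), and Rpl9-ps6, with 773, 686, 361 and 402 reads, fell by 0.64 (SE 0.19, edgeR adjusted p = 0.0142). The call of Rpl9-ps6 was lost with DESeq2 (adjusted p = 0.0553). Of their 31-mers, 96.6% and 92.7% are found in other genes. Rps19bp1, which encodes a binding partner of Rps19 and a regulator of Sirt1, had 184, 200, 652 and 677 reads and rose by 2.09 ± 0.18 (edgeR adjusted p = 8.47e-06).

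The log2 stimulation ratio had the same sign in WT and Yap KO for 79 of the 87 genes (90.8%), against 88.6% of all genes. The ratios of the 2 genotypes were less than 0.2 apart for 61 of the 87 (70.1%), against 36.8% of all genes. Of the 87 genes, 82 averaged 10 CPM or more, while all genes tested include genes with few reads, whose ratios carry more counting error. The part of read depth in this contrast was not tested. The fitted change with stimulation was itself under 1 log2 unit for 78 of the 87, and for 7947 of all 15394 genes. Across the 87 genes, which share the same 4 libraries, Pearson's r between the WT and the Yap KO ratios was 0.92, and 0.96 over the 82 with 100 or more reads in every library. Without Rps27 and Rps27l it was 0.93, and over all genes tested 0.92. Genes are not independent replicates, and no test was made of these values.

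**Figure D4:**
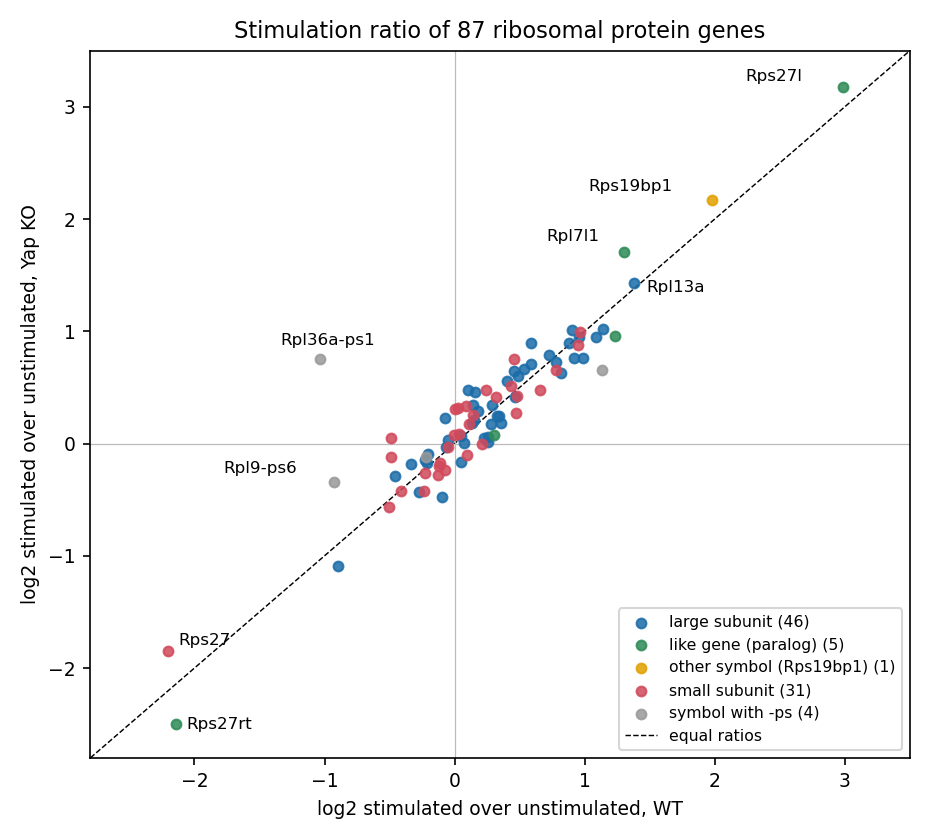
Log2 ratio, stimulated over unstimulated, of 87 ribosomal protein genes in WT (horizontal axis) and Yap KO (vertical axis), with colours for the classes of genes and a dashed line where both are equal. Most points lie near the line and close to 0, with Rps27l at the upper right and Rps27 and Rps27rt at the lower left, and Rpl36a-ps1, a gene of few reads, lies farthest from the line.

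Among genes with 100 or more reads in every library, the difference of responses, Yap KO minus WT, was largest in Rpl9-ps6 (0.59), Rps29 (0.54) and Rpl7l1 (0.40) and lowest in Rpl13 (-0.38), Rpl36al (-0.27) and Rpl18 (-0.24). Rps29, a small zinc-binding protein of the small subunit, had 286, 266, 204 and 276 CPM, so that only the WT stimulated library was low. Rpl13 had 995, 1158, 930 and 834 CPM, with the Yap KO stimulated library lowest and the Yap KO unstimulated library highest. Rpl18 had 365, 434, 437 and 440 CPM, with only the WT unstimulated library low. With 1 library in each group these differences have no replicate check.

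Between genotypes, 1 of the 87 genes was called. Over all genes, the additive fit called 0.838% higher and 0.559% lower in Yap KO, 1.4% in either direction. The gene called was Rps3a1, higher in Yap KO, and no ribosomal protein gene was called lower by edgeR or by DESeq2. At an unadjusted p under 0.05, edgeR had 5 of the 87 (5.75%) in either direction, against 11.6% of all genes. The median log2 ratio, Yap KO over WT, was 0.08 in unstimulated and 0.09 in stimulated cells, beside 0.03 and -0.00 over all genes. In 49 of the 87 (56.3%) the ratio was above 0 in both states, against 30.3% of all genes. Because no group had a replicate and the labels name no animals, the p-values do not measure the spread between animals. Across the 87 genes, Pearson's r between the genotype ratios of the 2 states was -0.01. Over the 82 genes with 100 or more reads in every library, r was 0.24 and Spearman's rho -0.07. Without Rps27 and Rps27l, r was 0.18, and over all genes tested 0.31.

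Rps3a1 encodes a small subunit protein that binds initiation factors near the mRNA exit and lies on chromosome 3 from 86137940 to 86142702 (GRCm38, minus strand, identifier ENSMUSG00000028081). It had 11160, 20633, 10174 and 16312 reads, or 487, 795, 499 and 846 CPM. Both Yap KO libraries were above both WT libraries, by log2 ratios of 0.71 (95% counting interval 0.67 to 0.74) in unstimulated and 0.76 (0.73 to 0.80) in stimulated cells. The fitted difference was 0.73 ± 0.12 (edgeR quasi-likelihood adjusted p = 0.0247), and the call was lost with no filter on low counts (adjusted p = 0.103).

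Of the 31-mers of Rps3a1, 76.9% occur in other genes, and its processed pseudogenes, copies of the mRNA set back into the genome, differed in the opposite direction. Rps3a3 had 3471, 111, 2548 and 70 reads. Rps3a2 had 1511, 138, 1288 and 129 reads. Both were high in the 2 WT libraries and low in the 2 Yap KO libraries. With the reads of all 7 of its pseudogenes added to Rps3a1, the log2 ratio, Yap KO over WT, was 0.19 (0.16 to 0.22) in unstimulated and 0.32 (0.28 to 0.35) in stimulated cells, and the fitted difference was 0.26 (edgeR adjusted p = 0.492). Of the 87 genes, 73 have an assigned pseudogene, and adding those reads moved all 4 log2 ratios of 70 of the 73 by under 0.1. The other 3 were Rps3a1, Rpl13a and Rpl24.

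**Figure D5:**
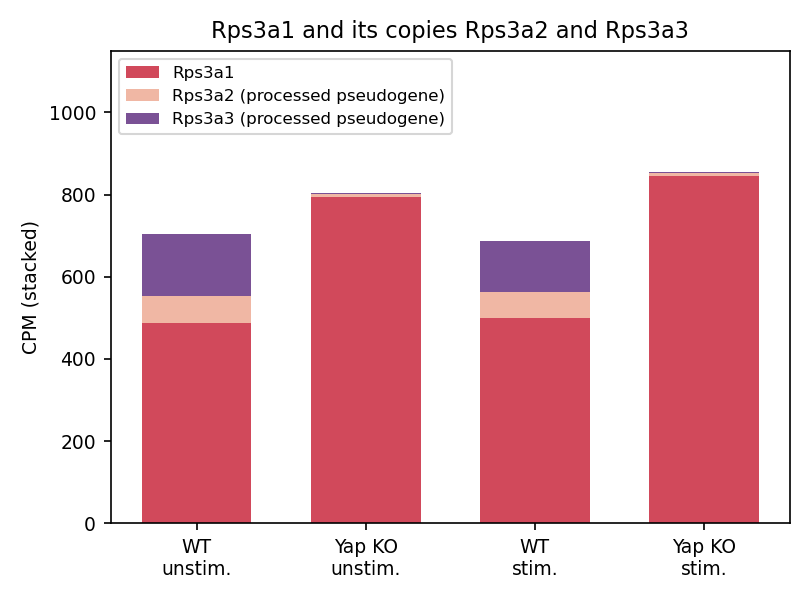
CPM of Rps3a1 and of its processed pseudogenes Rps3a2 and Rps3a3 as stacked bars for the 4 libraries. Rps3a1 stands at 487 and 499 CPM in WT and at 795 and 846 CPM in Yap KO, while the pseudogenes take 66.0 and 152 CPM in WT unstimulated cells and under 10 CPM each in both Yap KO libraries.

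The genes next to Rps3a1 by size of genotype difference did not pass. Rps27l had log2 ratios, Yap KO over WT, of 0.45 in unstimulated and 0.64 in stimulated cells (edgeR adjusted p = 0.0876). Rpl30, a large subunit protein that binds its own transcript in yeast, had 189, 235, 180 and 276 CPM and ratios of 0.31 and 0.62 (edgeR adjusted p = 0.154). Both Yap KO libraries of Rpl30 were above both WT libraries, and some of its exon bases lie opposite another gene. Rpl30 was named after its values were seen.

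Over all genes tested, 33.3% were called higher and 34.1% lower with stimulation, and the counts of the lists below stand beside these shares. Of the 3 tested genes of the cytosolic ribosome that lie outside the symbol rule, 2 rose and none fell. Rack1, a scaffold on the small subunit, had 513, 550, 1121 and 1169 CPM and rose by 1.11 ± 0.13 (edgeR adjusted p = 5.64e-05). Fau, a fusion with a ubiquitin-like protein, had 166, 178, 198 and 196 CPM and did not pass (0.20 ± 0.12). Of 13 chaperones and importers of ribosomal proteins, 12 rose and none fell, with median log2 ratios of 1.28 in WT and 1.59 in Yap KO. They include the nucleolar proteins Ncl (2.46 ± 0.15) and Npm1 (1.99 ± 0.14) and the importin Ipo5 (2.07 ± 0.13), and Ncl had 611, 620, 3238 and 3548 CPM. Of 15 translation elongation and other TOP mRNA genes, 9 rose and 2 fell, with medians of 0.41 and 0.51. The histone chaperone Nap1l1 rose by 2.85 ± 0.13 and the splicing factor Hnrnpa1 by 2.79 ± 0.14. Eef1a1, which brings aminoacyl-tRNA to the ribosome, had 4708, 4858, 2687 and 2666 CPM and fell by 0.84 (SE 0.16). Nap1l1 and Npm1 stand on both lists. None of the genes on these 3 lists was called between genotypes by edgeR, where 1.4% of all genes were called.

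Of 14 genes of mTORC1, its regulators and its control of TOP mRNAs, 8 rose and 5 fell. Over all genes 67.4% were called in either direction, 33.3% higher and 34.1% lower, which also applies to the next lists. Their median log2 ratios were 0.32 for WT and 0.51 for Yap KO. The translation repressor Eif4ebp1 had 3.49, 9.05, 216 and 192 CPM (5.09 ± 0.32), the cap-binding protein Eif4e rose by 2.12 ± 0.12 and the RNA-binding protein Larp4 by 1.53 ± 0.12. Tsc1, an inhibitor of mTORC1, fell by 1.11 (SE 0.19). Of the genes of p53 surveillance by ribosomal proteins, 4 of 5 were tested, and Cdkn2a had no read. Cdkn1a, the cell cycle inhibitor induced by p53, had 10, 11, 2912 and 3996 reads (8.65 ± 0.22). Mdm2 rose by 0.96 ± 0.13, Mdm4 fell by 2.07 (SE 0.17), and Trp53 did not pass (0.05 ± 0.12). Of 8 transcription factors with sites in ribosomal protein promoters, 5 rose and 2 fell, led by Myc (1.66 ± 0.12), Tbpl1 (1.15 ± 0.15), Gabpb1 (0.85 ± 0.13) and Gabpa (0.56 ± 0.13). Rack1, Larp4, Cdkn1a, Tbpl1, Gabpb1 and Gabpa have exons opposite another gene, whose reads cannot be told apart from theirs while the strand setting is unknown. No gene of these lists was called between genotypes by edgeR, where 1.4% of all genes were called.

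RefSeq promoters (250 bases before to 50 after the start, GRCm38.p6) were matched for 66 of the 92 genes and searched on both strands for short motifs. CCGGAAG, the core bound by GABP, an ETS factor, was present in 25 of 66 promoters (37.9%), against 9.17% of 27025 promoters of all genes. CTCTTTC, a pyrimidine run of the TOP kind, was present in 25.8% against 8.04%, and on the gene's strand from 10 before to 12 after the start in 4 of 66 (6.06%) against 0.248%. AAGATGG (YY1) was present in 13.6% against 6.46%, GGGGCGG (SP1) in 22.7% against 23.6%, and TATAAA in 9.09% against 14.2%. The last letters of CCGGAAG are the first letters of AAGATGG, so matches to these can overlap. A match is a description and not a bound site.

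The stimulation ratios of genes with and without a motif were set side by side. The 24 tested genes with CCGGAAG had median log2 stimulation ratios of 0.16 in WT and 0.30 in Yap KO, and the 39 without it 0.26 and 0.25. For AAGATGG, the 9 tested genes with it, Rps27 among them, had medians of 0.45 and 0.75, and the 54 without it 0.20 and 0.27. Of these 9, 5 rose and 2 fell, beside 33.3% and 34.1% of all genes. With so few genes and no test, these medians are given as description only.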

How the data were processed

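The authors deposited raw read counts per Ensembl gene, 1 table for each of 4 bulk RNA-seq libraries. Per the submitters' processing notes, reads were placed on mm9. Aligner, annotation release and strandedness: not given in the sources used here. Symbols, exons and coordinates come from GENCODE M21 (GRCm38), promoters from RefSeq. Of 50686 identifiers, 50462 matched a symbol. The 5 summary entries of each table stayed out of library sizes and tests. Among them, reads aligned in more than 1 place made up 3.48 to 4.31% of all entries and were counted for no gene, which takes reads from genes with near-identical copies.

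Genes were kept with filterByExpr by state (minimum count 10), which left 15394. The test was edgeR 4.0.16's quasi-likelihood F test (R 4.3.3) with genotype and state as additive terms, TMM scaling and Benjamini-Hochberg adjustment over all genes at 0.05. The fit has 1 residual degree of freedom, and SE is the coefficient over the root of F. It was tested on simulated data. CPM are TMM-scaled, except those of marker lists, which use total reads in genes. Log2 ratios of 2 libraries used a prior count of 2 (none where pseudogene reads were added), with exact 95% conditional binomial intervals. Shares of 31-mers were computed from the reference transcripts, and pseudogenes sharing 100 or more were assigned to their closest gene.

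Alternatives were DESeq2 1.42.0, other scalings and filters, a fit of state only, and leaving out genes opposite another gene or with 50% or more of their 31-mers shared. Alternatives chosen after seeing the data were edgeR's earlier method and adding pseudogene reads. Genes described singly were those with fixed roles, paralog pairs, the 6 largest called changes each way, called genotype differences, the 3 largest and lowest differences of response, extremes of level, and up to 4 called genes of each list. Rpl6, Rpl7a, Rpl10-ps3, Rpl24, Rpl29, Rpl32, Rpl36 and Rps18 were named after their values were seen. Some genes are not reported here by name. The genes and lists were chosen with earlier results of these data known.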

Additional observations from a re-analysis of the deposited data

Results flagged for a closer look

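In 3 ribosomal protein genes the stimulated library was above the unstimulated library in 1 genotype and below it in the other, with both counting intervals off 0. Rpl3, a protein of the catalytic centre, gave log2 stimulation ratios of 0.047 for WT and -0.16 for Yap KO. Rps14, of the small subunit, gave 0.099 for WT and -0.099 for Yap KO. Rpl30, of the large subunit, gave -0.073 for WT and 0.23 for Yap KO. Each ratio sets 1 library against 1 library, and the differences were not tested.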

How the results depend on the processing

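The genotype term compares the states within each genotype, so the genotypes served as the only replicates of stimulation. The labels do not say whether the libraries of a genotype came from the same animals. Without the genotype term, with state only, 32 genes rose and 9 fell. Over the alternatives, 25 to 36 genes rose and 6 to 13 fell with stimulation, and no direction reversed. On total counts, 30 rose and 13 fell. The count of genes higher in Yap KO, Rps3a1 alone, became 0 with no filter on low counts, with genes of 50% or more shared 31-mers left out, and with pseudogene reads added. The first tests more genes (25195), the second leaves out Rps3a1 itself and the third adds the copies' reads. The median stimulation ratio was 0.088 for WT and 0.17 for Yap KO on total counts, and 0.24 in WT without the genes that share 31-mers. The share of reads was 3.33, 3.54, 3.49 and 3.68% of protein-coding reads, 3.19, 3.38, 3.40 and 3.57% with pseudogenes added, and 2.81, 2.98, 2.98 and 3.13% without the genes that share 31-mers. With coding length, 3 of the first 10 genes by level were the same. On total counts Rpl13 was called lower (edgeR adjusted p = 0.0464). Rpl22 also lost its call with no filter, with genes opposite another gene left out and with state only, and Rps27a with no filter and with state only. The cause of these changes was not tested.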

Other observations

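Pseudogenes of ribosomal protein genes outside the Rps3a1 family had 16142, 19121, 14263 and 14112 reads in all, and 62 of the 570 assigned had 100 or more reads in a library. Gm10036, which shares 31-mers with Rpl11, had 261, 63, 216 and 52 reads, high in both WT libraries and low in both Yap KO libraries, as were Rps3a2 and Rps3a3. Rpl11 itself had 5072, 6436, 4766 and 4786 reads. Gm9625, a copy related to Rplp0, had 58, 109, 51 and 96 reads, higher in both Yap KO libraries. These 2 pseudogenes were picked after their values were seen, and no test was made.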
